A study of Homo sapiens with 6 samples.

Results

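The heat shock response chaperones described here are 10 human genes, HSPA6, HSPA1A, HSPA1B, HSPA8, HSPH1, DNAJB1, HSP90AA1, HSPB1, BAG3 and HSF1, out of 22077 gene symbols in the count table. They were chosen by symbol, with the difference between TKT-overexpressing and control cells already known, so their fold changes, intervals and calls are given as a description of these cultures and not as a test of the members. All 10 symbols were found in the table, and 7 of them passed the expression filter. By the class given to them here, 8 members are heat inducible and 2, HSPA8 and HSF1, are constitutive.

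RNA-seq was performed on 3 cultures of Huh7 cells, a human hepatocellular carcinoma line, that overexpressed transketolase (TKT) from a plasmid, and on 3 cultures that carried the vector. The labels give the genotype as over-expression for the first group and as wt for the second, and per the methods cells were transfected with a plasmid and then put under selection, whether as 1 clone or a pool not being given in the sources used here. Huh7 is the line of this experiment in the paper's Results, its Methods say HCCLM3, and the labels spell it Hu7. The libraries held between 30148788 and 37096156 counts each, and nothing in the labels describes a heat treatment.

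In the heat shock response, the transcription factor HSF1 is held inactive by chaperones and is released when unfolded proteins occupy them, after which it binds heat shock elements in the promoters of chaperone genes. HSP70 proteins fold clients in cycles that are started by J proteins and reset by exchange factors, HSP90 finishes selected clients, and small HSPs hold unfolded proteins for both. Hepatocellular carcinoma cells commonly carry high levels of these chaperones even without heat.

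The overexpressed gene was checked first. TKT, an enzyme of the pentose phosphate pathway, had 15626, 14256 and 17275 counts in the control cultures and 348402, 294602 and 308875 in the TKT-overexpressing cultures. The groups did not overlap, and the log2 difference was 4.26. Hepatocyte markers were abundant, with ALB at 2294 ± 42.4 FPKM and AFP at 2589 ± 34.9 FPKM in control cells (SD, n = 3). Of the 8 hepatocyte markers, 1 was called higher (FGB, log2 fold change 0.50) and 2 lower (APOA2, -0.13, and HNF4A, -0.15) in TKT-overexpressing cells (adjusted p-value under 0.05, edgeR). These are 12.5% and 25% of the hepatocyte markers, against 5.69% of all tested genes called higher and 4.94% called lower. Of 6 markers of leukocytes, endothelium and fibroblasts, 4 were in the table, and these summed to 612, 524 and 701 counts in control cells and to 742, 482 and 565 in TKT-overexpressing cells. PECAM1 made up most of these counts, COL1A1 had at most 29 counts, and COL1A2 and CD68 had at most 2. PTPRC and DCN were not found in the table under these symbols.

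FPKM, which divide counts by gene length and library size, allow the levels of different members to be ordered. In control cells the constitutive HSP70 HSPA8 was the most abundant member, at 642 ± 9.30 FPKM (SD, n = 3). It was followed by HSP90AA1, the inducible cytosolic HSP90, at 445 ± 10.04 FPKM and by the small HSP HSPB1 at 211 ± 8.45 FPKM. HSPH1 at 37.5 ± 1.04 FPKM and DNAJB1 at 36.9 ± 0.251 FPKM did not differ beyond their spread, and BAG3 lay lower, at 22.6 ± 0.393 FPKM. HSPA6 was at 0.421 ± 0.0959 FPKM. The gene lengths implied by the deposited values were 8.22 kb for DNAJB1 and 8.42 kb for HSPH1 but 1.63 kb for HSPB1, so this order depends on the gene models used for counting. In TKT-overexpressing cells the means had the same order, but there HSPH1 at 39.4 ± 1.97 FPKM lay above DNAJB1 at 35.6 ± 0.741 FPKM in every culture.

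**Figure D1:**
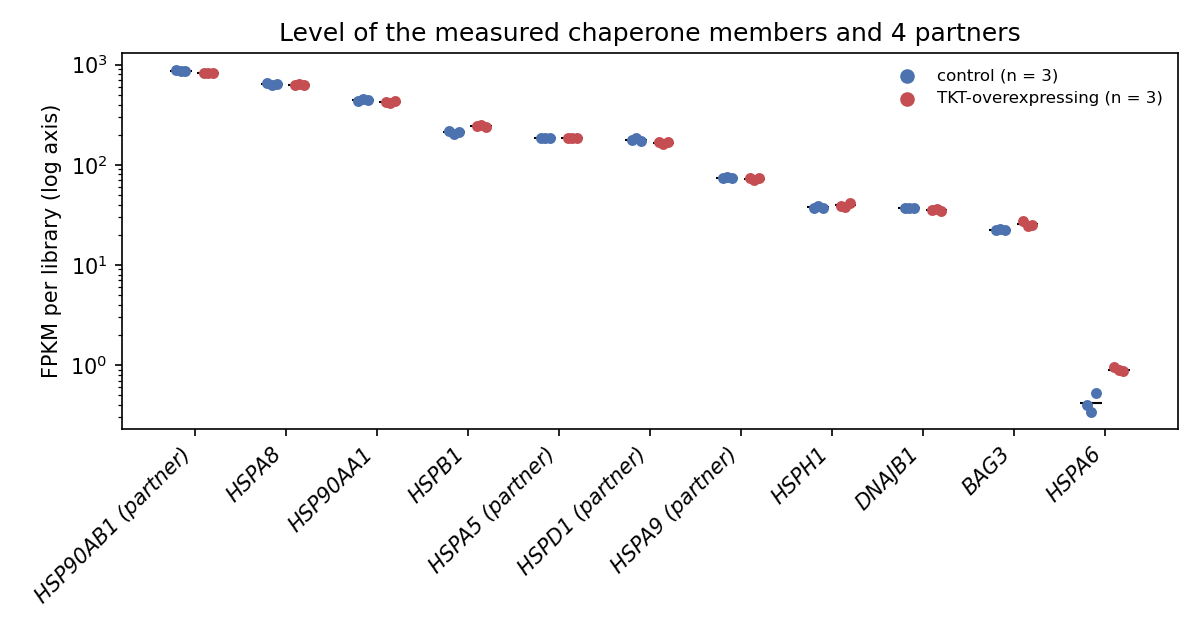
FPKM of the 7 measured members and of 4 partner chaperones in each library on a log axis, with blue points for control and red points for TKT-overexpressing cultures (n = 3 each) and lines at the group means. HSPA8 lies near 642 FPKM in control cells and HSPA6 near 0.421 FPKM.

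HSPA6 encodes an HSP70 that human cells make almost exclusively under stress. It had 30, 24 and 42 counts in the control cultures and 83, 66 and 66 in the TKT-overexpressing cultures. Each TKT-overexpressing culture was above each control culture, also after scaling to 0.955, 0.790 and 1.25 CPM against 2.24, 2.14 and 2.01 CPM (counts scaled to library size by TMM). The log2 fold change was 1.09 (standard error 0.28, 95% interval 0.49 to 1.68), a 2.12-fold difference. Its near-identical neighbour HSPA7 had at most 2 counts in any library, and how reads shared by both were assigned is not given in the sources used here.

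HSPB1 and BAG3 are the other members that were higher. HSPB1, the small HSP also known as HSP27, had 11275, 9924 and 11673 counts in control cells and 14772, 12658 and 12587 in TKT-overexpressing cells. The normalized values did not overlap, at 344 ± 16.3 CPM against 397 ± 13.8 CPM (SD, n = 3 each), with a log2 fold change of 0.21 (standard error 0.04, 95% interval 0.12 to 0.29). BAG3, the exchange factor that links HSP70 to small HSPs and to selective autophagy, had 1929, 1903 and 2086 counts in control cells and 2820, 2119 and 2246 in TKT-overexpressing cells. Scaled to CPM, control cultures lay at 61.4, 62.6 and 62.2 and TKT-overexpressing cultures at 76.1, 68.7 and 68.3, so that replicate 1 stood above the other two. The log2 fold change of BAG3 was 0.20 (standard error 0.05, 95% interval 0.08 to 0.31). In percent, these differences are 15.3 for HSPB1 and 14.5 for BAG3.

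**Figure D2:**
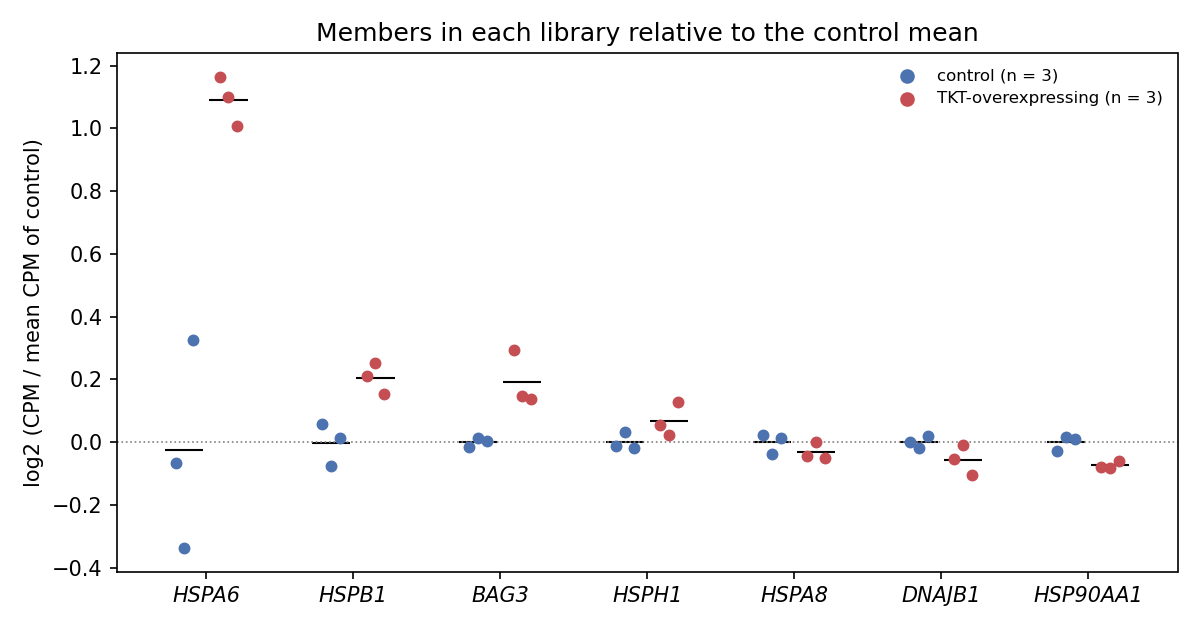
Normalized CPM of the 7 measured members in each library, as log2 of the ratio to the control mean, with blue points for control and red points for TKT-overexpressing cultures (n = 3 each) and lines at the group means. The groups are apart for HSPA6, HSPB1 and BAG3, which are higher, and for HSP90AA1, which is lower by a log2 fold change of -0.07.

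The remaining inducible members with enough counts lay near 0 on the log2 scale. HSPH1, the HSP110 that acts as an exchange factor and disaggregase partner of HSP70, had 9848, 9817 and 10473 counts in control cells and 12180, 9911 and 11353 in TKT-overexpressing cells. Its normalized values overlapped between groups, and its log2 fold change was 0.07 (standard error 0.04, 95% interval -0.01 to 0.15). DNAJB1, the J protein that hands clients to HSP70 and is among the most heat-responsive genes, had 9542, 9100 and 10327 counts in control cells and 10847, 9312 and 9282 in TKT-overexpressing cells. The groups again overlapped, at 304 ± 4.10 CPM against 292 ± 9.80 CPM, with a log2 fold change of -0.06 (standard error 0.04, 95% interval -0.13 to 0.02). HSP90AA1 had 70215, 70035 and 77028 counts in control cells and 79959, 66347 and 71954 in TKT-overexpressing cells. After scaling, every TKT-overexpressing culture lay below every control culture, at 2165 ± 19.8 CPM against 2278 ± 38.3 CPM, and the log2 fold change was -0.07 (standard error 0.03, 95% interval from -0.14 to just under 0).

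Of the constitutive members only HSPA8 could be measured. It had 100017, 92680 and 105956 counts in control cells and 112575, 96700 and 99335 in TKT-overexpressing cells, and the normalized values of the groups overlapped. Its log2 fold change was -0.03 (standard error 0.04, 95% interval -0.10 to 0.04). The inducible HSP90AA1 was also set against HSP90AB1, its constitutive cytosolic partner, within each library. The FPKM ratio of HSP90AA1 to HSP90AB1 was 0.492, 0.520 and 0.514 in control cells and 0.509, 0.500 and 0.525 in TKT-overexpressing cells. These ratios overlapped, and their mean log2 values differed by 0.01. No such ratio was formed for the HSP70 pair of HSPA1A and HSPA1B against HSPA8, because the inducible genes were listed at no more than 2 counts.

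Inducible and constitutive members could be contrasted only through HSPA8, since HSF1 was near 0. Among the 6 inducible members with enough counts, fold changes ran from a log2 value of -0.07 for HSP90AA1 to 1.09 for HSPA6, and that of the constitutive HSPA8 lay inside this range. With an adjusted p-value of 0.05 from edgeR as the limit, 3 of the 7 measured members were higher and 0 were lower, against 5.69% of all 14162 tested genes higher and 4.94% lower. At an unadjusted p-value under 0.05 the members past the limit were 4 in either direction, against 23.8% of all tested genes, and DESeq2 placed 1 lower, HSP90AA1. Without replicate 1 of either group, and with a replicate block, 1 member remained past the limit, HSPB1, and HSPA6 and BAG3 did not. In these fits the log2 fold change of HSPA6 was 1.05, 1.05 and 1.10. BAG3 was also not past it without control replicate 3 and in limma on FPKM, so that it passed in 6 of 12 alternatives, with log2 fold changes between 0.14 and 0.22. With a log2 fold change over 1 required as well, 1 member, HSPA6, was higher, against 0.699% of all tested genes higher and 0.0282% lower. This call was made in 6 of 12 alternatives. It was lost with a replicate block, in limma on FPKM and without replicate 1 of either group. It was also lost without control replicate 2, where the log2 fold change of HSPA6 was 0.946. Normalized values were without overlap between groups in 3 members in the higher and 1 in the lower direction, against 14.1% and 13.9% of all tested genes. Because the members were chosen with this contrast known, nothing is read from these counts. The 10 members together took between 0.642% and 0.643% of all counts in control cells and between 0.629% and 0.638% in TKT-overexpressing cells. These are shares of unscaled totals, which include the counts of the overexpressed TKT itself, so no fall of the members is read from them.

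HSPA1A, HSPA1B and HSF1 could not be compared. HSPA1A and HSPA1B are near-identical copies that encode the major stress-inducible HSP70. HSPA1A had 1, 2 and 0 counts in control cells and 0, 2 and 0 in TKT-overexpressing cells, and HSPA1B had 2, 0 and 1 against 2, 1 and 0. Summed to 1 feature, the pair had 6 counts over the control libraries and 5 over the TKT-overexpressing libraries. HSF1 had 1, 0 and 4 counts in control cells and 0 in each TKT-overexpressing culture. In both groups the mean of each gene was under the floor of 3 counts per library, so no fold change is given.

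Counts of the genes around them were also examined. Within 150 kb of HSPA1A, taking gene midpoints of RefSeq's GRCh38.p14, 13 other protein-coding genes were in the count table and 12 of them had at most 30 counts in every library. Among them were LSM2, a splicing factor subunit with at most 1 count, CSNK2B, a casein kinase subunit with at most 1 count, and NELFE, a transcription elongation factor subunit with at most 2 counts. Within the same distance of HSF1, 4 of 9 genes had at most 30 counts, among them DGAT1 with at most 2 counts, whereas BOP1 had between 5496 and 7445. Over all 15388 protein-coding genes matched to the table the share at or under 30 counts was 23.8%. Around measured members, 2 of 2 such genes near HSPA8, 2 of 2 near HSPA6 and 1 of 4 near HSPB1 had at most 30 counts. These windows hold too few genes for a comparison with HSPA1A, and nothing is read from them. Other genes that growing cells need were listed just as low, such as CCT8, a subunit of the chaperonin TRiC, with at most 4 counts, and the proteasome subunits PSMB3 and PSMC4 with at most 2. The values of HSPA1A, HSPA1B and HSF1 are therefore given as listed and not as absence of expression. The cause was not tested, and the annotation and the handling of multi-mapped reads are not given in the sources used here.

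**Figure D3:**
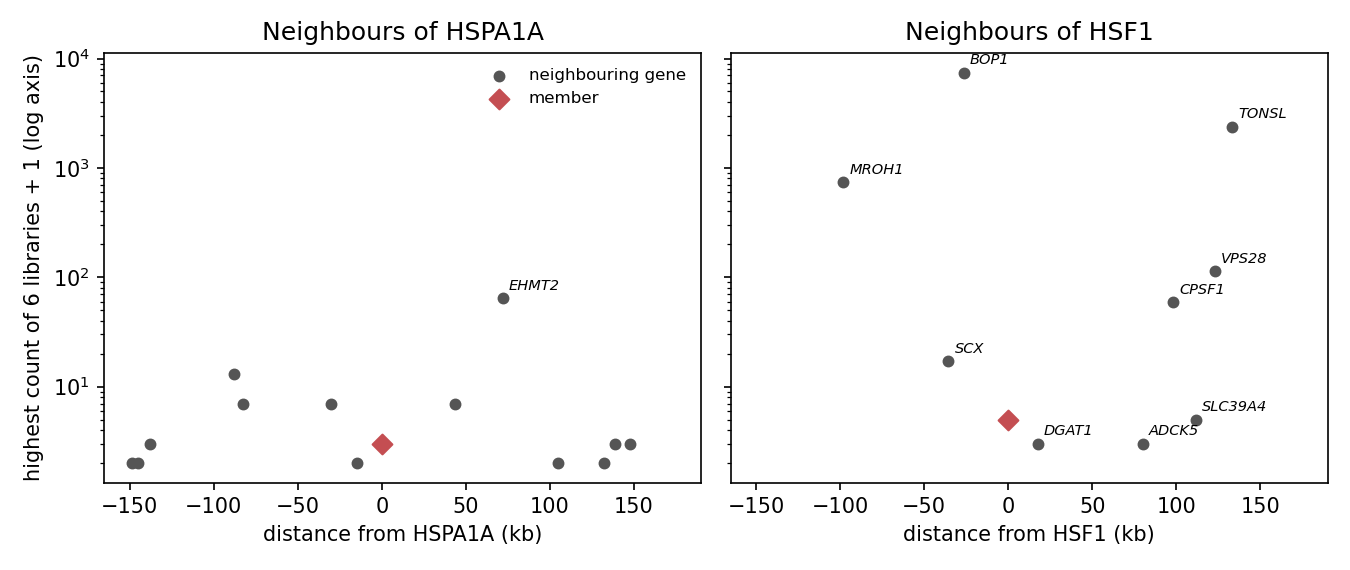
Highest count over the 6 libraries, plus 1 and on a log axis, of protein-coding genes within 150 kb of HSPA1A (left) and HSF1 (right), by distance in kb between gene midpoints. Around HSPA1A only EHMT2, with at most 63 counts, is above 30, while near HSF1 genes with at most 2 counts lie beside BOP1 and TONSL with up to 7445 and 2383.

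Promoters of the members were searched for the letters of the heat shock element in RefSeq windows of GRCh38.p14 from 250 bases before to 50 bases after each annotated start. The letters GAANNTTC and TTCNNGAA, which read the same on both strands, were each counted as a pair of units, and 3 alternating units, which contain overlapping pairs of both kinds, as a full element. A full element was present in 0.490% of all 35116 windows, GAANNTTC in 6.77% and TTCNNGAA in 7.74%. HSF1 was left out of the search. Full elements were present in HSPA6, HSPA8 and 1 of the starts of HSP90AA1. A single pair was found in HSPA1A, HSPA1B and HSPB1. The 3 starts of DNAJB1 had 1, 2 and 0 pairs, and no pair was found in the windows of BAG3 and HSPH1. Only exact letters inside the windows were counted. Units with a mismatch, or further from the start, were not searched for, so a gene without a match here may still carry an element. The stretches around the full element nearest to the start, or around the nearest pair where there was no full element, are shown for 1 member that was higher by more than 2-fold, for members with a full element that were not, and for HSPB1 and HSPB8, with paired units in capitals, 5′ to 3′ on the gene's strand.
HSPA6: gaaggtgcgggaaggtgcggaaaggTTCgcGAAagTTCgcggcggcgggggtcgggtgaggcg
HSPA8: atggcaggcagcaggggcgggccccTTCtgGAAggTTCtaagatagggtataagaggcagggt
HSP90AA1: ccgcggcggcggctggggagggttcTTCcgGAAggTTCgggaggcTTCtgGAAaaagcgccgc
HSPB1: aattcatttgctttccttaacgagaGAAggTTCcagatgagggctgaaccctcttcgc
HSPB8: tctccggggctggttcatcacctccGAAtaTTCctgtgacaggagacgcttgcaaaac
These stretches lie upstream of the starts, at chr1:161524441-161524503 (plus strand) for HSPA6, chr11:123062154-123062216 (minus strand) for HSPA8, chr14:102087095-102087157 (minus strand) for HSP90AA1, chr7:76302466-76302523 (plus strand) for HSPB1 and chr12:119178818-119178875 (plus strand) for HSPB8. HSPA6, HSPA8 and HSP90AA1 all carried a full element and had log2 fold changes of 1.09, -0.03 and -0.07. Outside the members, the constitutive HSP90AB1 carried full elements at a start and had a log2 fold change of -0.08. DNAJB4, with a log2 fold change of 0.51, had 1 pair at a start and no full element. BAG3, with a log2 fold change of 0.20, had no exact pair in its window, and nothing is read from this. Apart from the members, 53 tested genes had a full element, of which 4 were called higher and 0 lower by edgeR (adjusted p-value under 0.05), with a median log2 fold change of -0.01. The 4 are 7.55% of the 53, close to the 5.69% of all tested genes called higher. Not every tested gene had a promoter window. Of the 9360 tested genes with a window but no pair in it, 5.85% were called higher and 5.32% lower. The 4 genes with a full element that were called higher were DNAJB6, GAS5, GLIS3 and MAP2, named after their values were seen.

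The wider network took in chaperones, the HSF family and its regulators, other heat-inducible genes and proteasome subunits. It was described through 176 further genes sorted by role, of which 154 were tested. By edgeR, 13 of them rose and 6 fell past an adjusted p-value of 0.05, and their median log2 value was -0.02. These shares, 8.44% and 3.90%, stand beside 5.69% and 4.94% of all tested genes, and nothing particular to the lists is read from them. Without proteasome and other heat-inducible genes, the chaperone lists and the HSF family with its regulators had 110 tested genes. Of these 110, 7 rose (6.36%) and 2 fell (1.82%). HSPB8, the small HSP that binds BAG3 in chaperone-assisted autophagy, had 147, 126 and 145 counts in control cells and 449, 395 and 414 in TKT-overexpressing cells. Every TKT-overexpressing culture lay above every control culture, by 2.85-fold on average (log2 1.51, standard error 0.13, edgeR adjusted p = 3.09e-08). The estimate exceeds that of each member, but the difference from HSPA6 was not tested. DNAJB4, a J protein of the same family as DNAJB1, had 852, 749 and 836 counts in control cells and 1330, 1098 and 1240 in TKT-overexpressing cells. Each of the 3 TKT-overexpressing cultures was above the controls, with a log2 difference of 0.51 (standard error 0.07, edgeR adjusted p = 3.15e-05). Among the 22 tested J proteins of cytosol and nucleus, DNAJB6 was the only other one that rose, with a log2 fold change of 0.14. The 2 are 9.09% of this list, against 5.69% of all tested genes called higher.

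**Figure D4:**
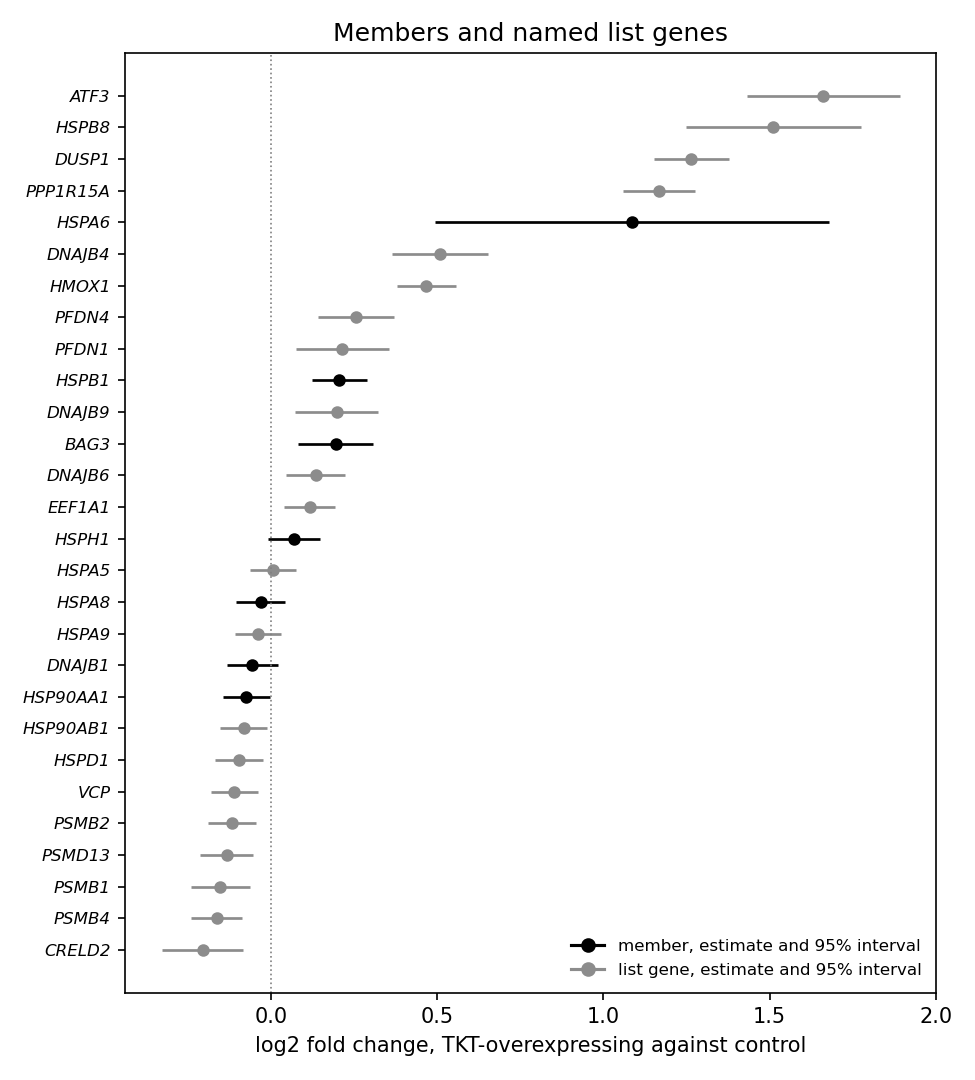
Log2 fold change of TKT-overexpressing against control cells with its 95% interval for the 7 measured members (black) and the named genes of the other lists (grey). HSPB8 at 1.51 lies to the right of HSPA6 at 1.09, whose interval runs from 0.49 to 1.68.

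None of the 19 tested genes of HSP90 and its cochaperones passed an adjusted p-value of 0.05 in edgeR (0 genes). Of all tested genes, 5.69% were called higher and 4.94% lower. At an unadjusted p-value under 0.05 the list had 3, against 23.8% of all tested genes, and DESeq2 called 1. The median log2 fold change of the list was -0.08. Of the 19 estimates, 18 were below 0, as were 49.8% of those of all tested genes. The lowest, -0.54 for TTC4, rests on 22 to 39 counts a library and has a 95% interval from -1.28 to 0.21. The gene called by DESeq2 was HSP90AB1, at a log2 value of -0.08 with a standard error of 0.03. A list of other HSP70 cochaperones, with BAG proteins, HSPBP1, ST13, HIKESHI and the ubiquitin ligase STUB1, gave 0 of 8 tested genes, with 0 at an unadjusted p-value under 0.05 and 0 by DESeq2. The other HSP70 and HSP110 genes gave 0 of 6, with 1 at an unadjusted p-value under 0.05 and 0 by DESeq2. Both lists stand beside the same shares of all tested genes. The chaperonin TRiC and prefoldin list had 2 rises among 13 genes (15.4%, against 5.69% of all tested genes). These were PFDN4 and PFDN1 of prefoldin, with log2 fold changes of 0.26 and 0.22, and PFDN1 was not called by DESeq2.

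Chaperones of the organelles were taken next. HSPA5, the HSP70 of the endoplasmic reticulum (ER), lay at a log2 value of 0.01 with a standard error of 0.03. Of 19 tested ER chaperone genes, DNAJB9 rose with a log2 fold change of 0.20 and CRELD2 fell with one of -0.20, against 5.69% and 4.94% of all tested genes. At an unadjusted p-value under 0.05 the list had 7 in either direction, against 23.8% of all tested genes, and DESeq2 called 2, CRELD2 and PDIA6, but not DNAJB9. Of the 13 mitochondrial chaperones, 0 passed in edgeR, against 5.69% of all tested genes higher and 4.94% lower. At an unadjusted p-value under 0.05 there were 2, against 23.8% of all tested genes, and DESeq2 called 1. The mitochondrial HSP70, HSPA9, lay at a log2 value of -0.04. The chaperonin subunit HSPD1, the gene called by DESeq2, lay at -0.10. Between libraries of 1 group, CANX and DNAJA3 differed by more than 5-fold, with CANX at 2171 counts in control replicate 1 and 313 in control replicate 2.

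A further list held other genes that heat also induces. Of 13 tested, 6 rose (46.2%) and 0 fell, against 5.69% and 4.94% of all tested genes. At an unadjusted p-value under 0.05 there were 8 in all, against 23.8% of all tested genes, and DESeq2 called 6. The median log2 fold change of the list was 0.14. This list too was chosen with earlier results known, and its difference from the chaperone lists was not tested. Gene Ontology lists gave lower shares of rises. Of 25 tested genes of its list for response to heat, 3 rose (12%) and 1 fell (4%), with a median of 0.01. Of 30 tested genes of its list for cellular response to heat, 4 rose (13.3%) and 3 fell (10%), with a median of 0.04. ATF3, a stress-induced transcription factor, rose from 254, 207 and 324 counts in control cells to 980, 796 and 839 in TKT-overexpressing cells. Its log2 fold change was 1.66 (standard error 0.11). The phosphatase gene DUSP1 and PPP1R15A, whose product restores translation after stress, had log2 fold changes of 1.26 and 1.17 (standard error 0.05 for each). HMOX1, the heme oxygenase that oxidative stress induces, had one of 0.47 (standard error 0.04). These genes also respond to signals other than heat, and which signal acted here was not tested.

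The last lists held regulators of HSF1 and the proteasome. Of 8 tested genes of the HSF family and its regulators, EEF1A1 rose with a log2 fold change of 0.12. VCP, the unfoldase that extracts ubiquitinated proteins, fell with one of -0.11. Each is 12.5% of this list, against 5.69% and 4.94% of all tested genes, and nothing particular to the list is read from these calls. Of 31 tested proteasome subunits, which degrade proteins that chaperones cannot refold, 0 rose and 4 fell (12.9%, against 4.94% of all tested genes). At an unadjusted p-value under 0.05 there were 11 in either direction, against 23.8% of all tested genes, and DESeq2 called 5. The 4 that fell were PSMB4, PSMB1, PSMD13 and PSMB2, with log2 fold changes of -0.16, -0.15, -0.13 and -0.12. The calls of EEF1A1, VCP, DNAJB6, PFDN1, DNAJB9, CRELD2, PSMB1, PSMD13 and PSMB2 were each lost when certain single cultures were left out. Those of HSPB8, DNAJB4, PFDN4, PSMB4, ATF3, DUSP1, PPP1R15A and HMOX1 were lost in none of these fits. With a replicate block the call of PSMB4 was lost (edgeR adjusted p = 0.0627).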

How the data were processed

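Total RNA of 6 cultures was sequenced as paired-end reads, and the authors trimmed them with fastp 0.22.0, aligned them with HISAT2 2.1.0 to hg38 and counted them with featureCounts. The deposited counts are whole numbers per gene symbol without normalization. The deposited FPKM are the authors' length- and depth-scaled values and were used for levels. Counts were tested here with edgeR 4.0.16 in R 4.3.3 (filterByExpr with a minimum count of 10, TMM, robust quasi-likelihood test, Benjamini-Hochberg adjustment over all 14162 tested genes). Genes were called at an adjusted p-value under 0.05, and separately with an absolute log2 fold change over 1. The p-values measure the spread between these cultures only, and floors cover counting error only. Intervals are 95% intervals from the same fit. Named genes are the 10 members, TKT, HSP90AB1, HSPA5, HSPA9, HSPD1, the markers, every list gene past both thresholds and, from each list, at most 4 called genes with the largest absolute log2 fold change at a mean log2 CPM of at least 1. Neighbouring genes, CCT8, PSMB3, PSMC4, HSPA7, TTC4, PDIA6, BAG proteins, HSPBP1, ST13, HIKESHI, STUB1, CANX and DNAJA3 were named after their values were seen, as was the window of 150 kb. The members and lists were chosen with earlier results of these data known. Symbols matched RefSeq for 15388 protein-coding genes. Alternatives used DESeq2 1.42.0, limma 3.58.1 on log2(FPKM + 1) and log2(FPKM + 0.1), RLE scaling, no filter, a replicate block, each culture left out, and HSPA1A and HSPA1B summed. The scripts were tested on simulated counts. Protein sequences were not used here.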

Additional observations from a re-analysis of the deposited data

How the results depend on the processing

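Log2 fold changes of the 7 measured members kept their sign in all 12 alternatives, and no scaling moved the median of all genes by more than 0.1. That of HSPA6 lay between 0.42, on log2(FPKM + 1), and 1.28. The adjusted p-value was under 0.05 in 12 of 12 alternatives for HSPB8, DNAJB4, ATF3, DUSP1, PPP1R15A and HMOX1. Same-numbered cultures deviated from their group means with correlations of 0.0106, -0.0937 and 0.0525, and differently numbered ones with correlations from -0.158 to 0.146. No shared deviation by number was seen, but these values cannot tell whether same-numbered cultures were prepared together. The other lists hold chaperones, the HSF family and its regulators, proteasome subunits and further heat-inducible genes. With a replicate block, 431 genes were higher and 266 lower (65 and 2 with a log2 fold change over 1), 1 member was higher (0 with that fold), and 8 other list genes were higher and 0 lower. limma on log2(FPKM + 1) gave 496 higher and 331 lower genes (12 and 1 with the fold), 0 members with the fold and 1 lower list gene. On log2(FPKM + 0.1) it gave 494 and 332 (64 and 2), 0 and 1. DESeq2 placed 58 genes higher with the fold, 1 member lower and 10 other list genes lower. Without a filter 12 genes were lower with the fold. With each culture left out, higher genes ranged from 457 to 820 and lower genes from 334 to 766 (72 to 122 and 2 to 8 with the fold). Members called higher ranged from 1 to 3 (0 to 1 with the fold), with 1, HSPB1, without control replicate 1 and 1, HSPB1, without TKT-overexpressing replicate 1. All genes were at 521 higher and 360 lower without control replicate 1, 457 and 334 without TKT-overexpressing replicate 1, and 447 lower without TKT-overexpressing replicate 3. Genes of the other lists ranged from 8 to 12 higher and from 1 to 13 lower, and the 4 rises past the fold (HSPB8, ATF3, DUSP1 and PPP1R15A) were called in each of the 12 alternatives. The pair HSPA1A and HSPA1B gave no value when summed, because it stayed under the filter. HSPA6 had between 24 and 83 counts a library, and HSPA1A, HSPA1B and HSF1 had too few counts for a fold change. The cause of these shifts was not tested.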
